A study of Mus musculus with 13 samples.

Results

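The response of the mouse left ventricle to pressure overload in wild-type (Wt) mice was read from 4 arrays labelled Wt TAC and 3 arrays labelled Wt sham, which are 7 of the 13 arrays of the series and were chosen by their sample labels alone. The design text of the series gives n = 3 for each group, which the 4 arrays labelled Wt TAC do not match. Wt TAC animals had 5 weeks of transverse aortic constriction (TAC), in which a ligature narrows the aortic arch so that the ventricle ejects against a raised pressure. Wt sham animals had the operation without the constriction. All 7 arrays are labelled as left ventricular tissue of male C57BL/6 mice aged 4 months. They were littermates of mice carrying murine LXRα, the oxysterol-sensing nuclear receptor encoded by Nr1h3, under the αMHC promoter, which drives expression in cardiomyocytes. The LXRα-Tg TAC (3 arrays) and LXRα-Tg sham (3 arrays) groups entered the same fit and are used below for a single comparison.

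Pressure overload makes cardiomyocytes grow in width, add sarcomeres and reactivate genes of the fetal heart, among them the natriuretic peptides, skeletal α-actin and, in rodents, β-myosin. Stretch and neurohormones act through calcineurin, mitogen-activated kinases and transcription factors of the GATA, MEF2 and NFAT families. Fibroblasts lay down collagen and other matrix, and the failing heart tends to use less fatty acid and more glucose. These are textbook features of the model and not results of these arrays.

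On 2 of the 7 arrays, Nr1h3 went against the genotype on the label. Its deposited signal was 31926.6 on the array labelled Wt TAC 2 and 27568.2 on the array labelled Wt sham 3, against 166.2 to 340.8 on the other 5 Wt arrays. On the array labelled Wt sham 1, the Y-linked gene Eif2s3y had a signal of -3.9, against 92.8 to 291.0 on the other 6, and 1 of 2 probes of Xist, the RNA of the inactive X, read 32.0, against -6.2 to 7.1. Wt sham 3 also carried transcripts of other organs: 17 of 26 kidney markers were detected on it, against 3 to 12 on the Wt TAC arrays and 2 and 3 on the other Wt sham arrays. The summed signal of 24 liver markers was 1277.3 to 12027.3 on the Wt TAC arrays and 3506.9 to 22610.6 on the Wt sham arrays, highest on Wt sham 3 and next highest on Wt TAC 4. Group names below are those of the labels, and a direction drawn from Wt TAC or Wt sham rests on arrays that include these. Ventricular identity was clear, with 10 of 11 ventricular cardiomyocyte markers detected on every one of the 7 arrays. Lymphocyte markers were at or near background, with 12 of 13 detected on none. The labels do not say whether arrays of a group came from separate mice, and what the tests below set a difference against is only the variation from array to array. Between 9454 and 10392 probes were detected on each of the 7 arrays.

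No gene passed the test for a difference between Wt TAC and Wt sham. Of 7837 genes, 0 had an adjusted p under 0.05 by limma (percent called 0.0, lowest adjusted p 0.39), and 539 had an unadjusted p under 0.05, which is 6.88% of those tested. Of these, 372 (4.75%) were higher in Wt TAC and 167 (2.13%) were lower. The 4 Wt TAC arrays all lay above the 3 Wt sham arrays for 346 genes (4.41%) and all below them for 225 genes (2.87%). The median log2 change was 0.02, and 53.1% of genes had a change above 0. The spread among arrays of a group was as wide as the distance between the groups: pairs of arrays within a group correlated at 0.959 to 0.986, and Wt TAC with Wt sham arrays at 0.957 to 0.985. Without Wt TAC 4, 3 genes had an adjusted p under 0.05 (Ddx6, Enpp4 and Kitl, all higher in Wt TAC), and without Wt sham 1 the 372 became 227. Scaling by the median instead of by quantiles turned the split of 372 and 167 into 234 higher and 310 lower. Every value below is therefore a measured difference that did not pass the adjusted threshold, unless a sentence says otherwise. An adjusted p is limma's over all genes, and "at unadjusted p" means below 0.05 before that adjustment. Each count of list members at unadjusted p is to be set beside the 4.75% higher and 2.13% lower of all genes. Bulk RNA does not tell fewer cells of a type from less RNA per cell.

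The genes that define the fetal response had higher means in Wt TAC but overlapped Wt sham. Acta1, which encodes skeletal α-actin, had a normalized log2 signal of 11.45, 13.77, 13.36 and 14.62 on Wt TAC 1 to 4, against 10.63, 12.60 and 13.13 on Wt sham 1 to 3. The lowest array of each group was the first, and the ranges of the groups overlapped. Its log2 change was 1.19 ± 0.69 (SE), a 2.27-fold difference with a 95% interval of -0.30 to 2.68 (adjusted p = 0.78). Nppa, the gene of atrial natriuretic peptide, had 12.63, 14.80, 12.69 and 14.21 on the Wt TAC arrays, against 12.88, 12.68 and 13.35 on the Wt sham arrays. Wt TAC 2 and 4 stood above every Wt sham array, and Wt TAC 1 and 3 stood level with the lowest Wt sham values. The deposited Nppa signal on Wt TAC 2 was 31119.0, close to the highest signal of that array, 31980.5. The change of Nppa was 0.61 (adjusted p = 0.83). Nppb, which encodes the B-type peptide used clinically as a marker of wall stress, was also high on Wt TAC 2 and 4, with 12.33, 14.21, 12.77 and 14.27 on Wt TAC, against 12.56, 13.12 and 13.89 on Wt sham. Its change of 0.21 was 0.43 within slide 1 and -0.37 within slide 2, the 2 chips on which the arrays were run. Slide 1 held Wt TAC 1 and 2 with Wt sham 1 and 2, and slide 2 held Wt TAC 3 and 4 with a single Wt sham array, Wt sham 3, so that every value within slide 2 rests on that array.

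Myh7, which encodes β-myosin, was high on a single array. It measured 6.51, 5.70, 5.92 and 7.88 on Wt TAC 1 to 4, against 5.90, 6.25 and 5.76 on Wt sham 1 to 3, so that Wt TAC 4 set the mean difference of 0.54 (adjusted p = 0.89). Without Wt TAC 4 the difference was 0.08. Myh6, the gene of adult α-myosin, averaged 14.48 ± 0.13 in Wt TAC (SD, n = 4) and 14.49 ± 0.20 in Wt sham (SD, n = 3), and the interval of the difference was -0.29 to 0.28. The deposited signals of this probe were 17683.9 to 25459.9, where the highest signals of any probe were 27120.2 to 31980.5 on the 7 arrays. Whether a change is compressed so near the top was not tested. The other Myh6 probe, detected on all 7 arrays, gave -0.62, so the probes of Myh6 disagree. Of 19 contractile isoforms tested, 1 was higher at unadjusted p (Myl7, the atrial regulatory light chain) and 0 were lower, beside 4.75% and 2.13% of all genes. Their median change was -0.04, beside 0.02 for all genes. Of the 6 measured natriuretic peptide and receptor genes, 0 had an unadjusted p under 0.05.

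**Figure D1:**
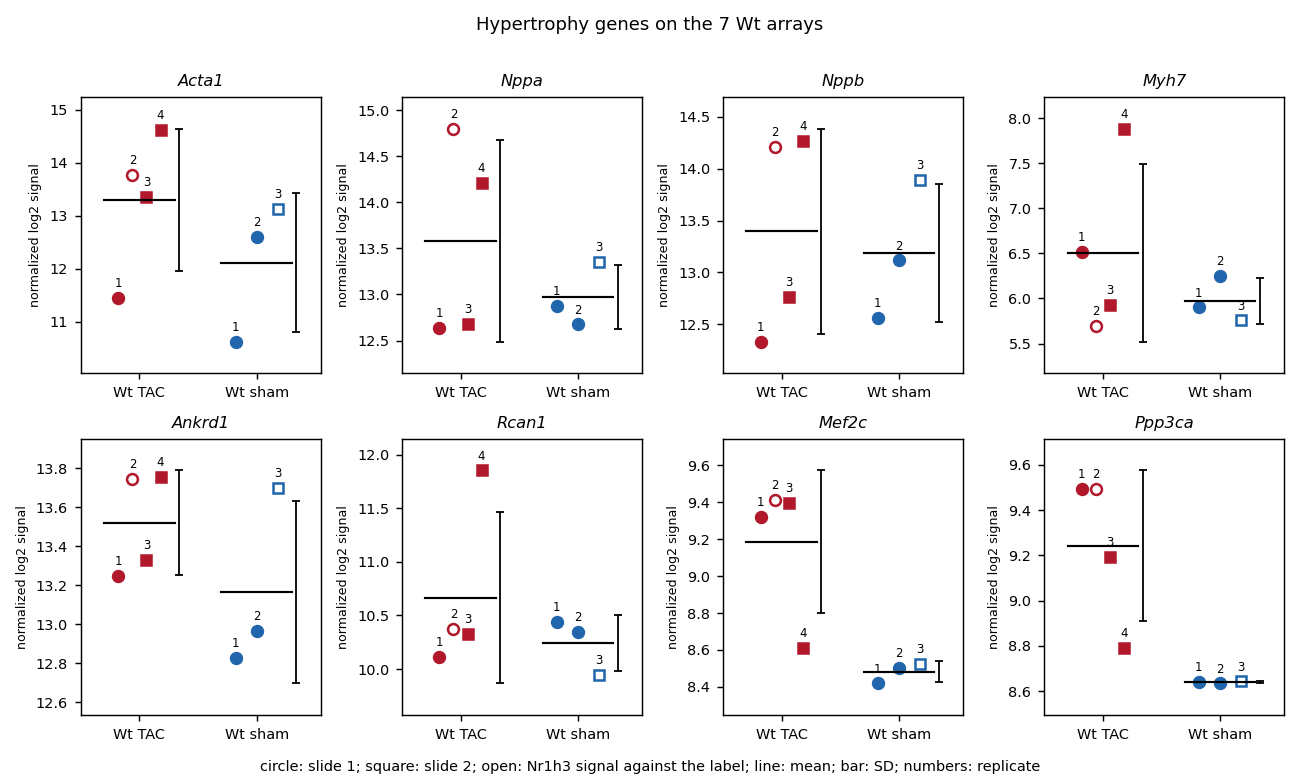
Normalized log2 signal of 8 hypertrophy genes on each of the 4 Wt TAC (left, red) and 3 Wt sham (right, blue) arrays, numbered by replicate, with the group mean (line) and SD (bar). Circles are slide 1, squares slide 2, and open symbols the arrays on which Nr1h3 went against the label. Acta1, Nppa, Nppb, Myh7, Ankrd1 and Rcan1 overlap between the groups, while all Wt TAC arrays lie above Wt sham for Mef2c and Ppp3ca.

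Of 17 genes of the Z-disc and of stretch sensing, 10 had a change above 0 and 7 below 0. At unadjusted p 1 was higher and 0 were lower, beside 4.75% and 2.13% of all genes. Their median of 0.14 was -0.02 within slide 1, 0.30 within slide 2 and -0.02 without the 2 arrays with Nr1h3 against the label. Nrap, which encodes an actin-anchoring protein of nascent myofibrils, had 11.97, 12.20, 11.99 and 12.44 on the Wt TAC arrays, against 11.75, 11.65 and 11.62 on the Wt sham arrays. The groups did not overlap, and the gap between them was 0.22. The change was 0.47 ± 0.18 (adjusted p = 0.64), and 0.26 by its other probe. Fhl1, a LIM protein that senses strain in the sarcomere, did not overlap either but by a gap of only 0.01, with a change of 0.29 (adjusted p = 0.83). Ankrd1, which encodes a stretch-responsive titin-binding repressor, had 13.25, 13.74, 13.33 and 13.76 on Wt TAC, against 12.83, 12.96 and 13.70 on Wt sham. Wt sham 3 stood among the Wt TAC arrays, and the change of 0.36 (adjusted p = 0.79) was 0.60 within slide 1 and -0.16 within slide 2. Ankrd23, a paralogous titin-binding protein, differed by 0.48 (adjusted p = 0.79) with its highest value, 12.04, on Wt TAC 4.

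Promoters of 3 of these genes are shown because they carry motifs that bind factors of the hypertrophic response. The M-CAT motif, bound by TEAD factors, was searched as CATTCC. The motif of GATA factors was searched as AGATAA. The CArG box, bound by serum response factor, was searched by its name. Both strands were searched in the 250 bases before the start site, in RefSeq sequence of build GRCm38.p6. Capitals mark the matches.
Acta1, 100 bases before the start, chr8:123894776-123894875, minus strand: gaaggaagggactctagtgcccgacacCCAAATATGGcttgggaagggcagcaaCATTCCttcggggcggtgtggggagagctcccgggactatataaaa
Nppb, 120 bases before the start, chr4:147985780-147985899, plus strand: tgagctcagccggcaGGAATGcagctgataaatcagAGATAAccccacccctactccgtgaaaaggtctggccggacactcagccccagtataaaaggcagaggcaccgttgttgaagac
Ankrd1, 220 bases before the start, chr19:36119845-36120064, minus strand: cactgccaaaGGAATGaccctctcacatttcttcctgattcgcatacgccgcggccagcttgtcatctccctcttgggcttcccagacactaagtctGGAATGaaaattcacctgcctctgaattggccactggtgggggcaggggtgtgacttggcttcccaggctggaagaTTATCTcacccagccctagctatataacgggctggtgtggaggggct
The CArG box of Acta1 began at -73 and its M-CAT at -46 from the start, and Nppb had an M-CAT on the reverse strand at -105 and a GATA match at -84. Ankrd1 had M-CAT matches at -210 and -123 and a GATA match at -47, all on the reverse strand. M-CAT was found in 5 of the 7 promoters with an entry among Nppa, Nppb, Myh7, Acta1, Ankrd1, Rcan1, Ccn2 and Timp1, a set chosen after their values were seen, and in 12.6% of all 27018 promoters. GATA was in 10.3% and the CArG box in 1.4% of all promoters. A match is a description of the letters only.

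Of 28 genes of hypertrophic signalling, all Wt TAC arrays lay above Wt sham for 2 (Mef2c and Ppp3ca) and below it for 2 (Nkx2-5 and Hdac4), where 4.41% and 2.87% of all genes did so. Mef2c, a transcription factor that drives cardiac growth genes, had 9.32, 9.41, 9.40 and 8.61 on Wt TAC 1 to 4, against 8.42, 8.50 and 8.53 on Wt sham 1 to 3. Wt TAC 1 to 3 stood about level and well above Wt sham, and Wt TAC 4 stood just above it. The change was 0.70 ± 0.19, a 1.63-fold difference (adjusted p = 0.63 by limma), and the other probes gave 0.59 and 0.74. Ppp3ca, which encodes the catalytic subunit Aα of calcineurin, the phosphatase that activates NFAT, had 9.49, 9.49, 9.19 and 8.79 on Wt TAC, against 8.64, 8.63 and 8.64 on Wt sham. The Wt sham arrays were nearly equal, and again Wt TAC 4 was the lowest of its group. The change was 0.60 ± 0.16 (adjusted p = 0.63), 0.86 within slide 1 and 0.35 within slide 2, and 0.43 by its other probe. Nfatc3, a calcineurin substrate, was higher by 0.49 (adjusted p = 0.72) with overlapping groups, and by 0.12 without the 2 arrays with Nr1h3 against the label.

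Rcan1, an inhibitor of calcineurin that is itself induced by NFAT and so reports calcineurin activity, overlapped between the groups. It had 10.11, 10.37, 10.33 and 11.85 on Wt TAC, against 10.44, 10.34 and 9.94 on Wt sham. Only Wt TAC 4 was above the Wt sham range. Its change of 0.42 (adjusted p = 0.86) was 0.03 without that array, -0.15 within slide 1 and 1.15 within slide 2. Its other probe, detected on 4 of 4 Wt TAC and 2 of 3 Wt sham arrays, gave 0.98. Of the 28 signalling genes, 3 were higher at unadjusted p and 0 lower (4.75% and 2.13% of all genes), with a median of 0.12. The cardiac transcription factor Nkx2-5 was at 7.93 ± 0.13 in Wt TAC (SD, n = 4) and 8.13 ± 0.03 in Wt sham (SD, n = 3), a change of -0.20 (adjusted p = 0.80) with a gap of 0.01. Hdac4, a histone deacetylase that represses MEF2, had 6.41 to 6.51 on the Wt TAC arrays, against 6.55 to 6.92 on the Wt sham arrays, a change of -0.25 (adjusted p = 0.78) with a gap of 0.04. Hdac4 was named after its values were seen.

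Among 16 immediate early genes, 2 were higher at unadjusted p and 1 lower, beside 4.75% and 2.13% of all genes. Klf6, a zinc finger factor induced by injury, differed by 0.51 (adjusted p = 0.64) and Jund, an AP-1 subunit, by 0.53 (adjusted p = 0.64). Klf2, the flow-responsive endothelial factor, differed by -0.33 (adjusted p = 0.72), with Wt TAC between 9.40 and 9.93 and Wt sham between 9.96 and 10.17. The list as a whole had no stable direction, with a median of 0.09 that was 0.46 within slide 1 and -0.32 within slide 2.

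Extracellular matrix genes leaned higher in Wt TAC. Over the 77 genes tested of 6 matrix lists, 56 had a change above 0, and the median was 0.22, beside 0.02 for all genes. At unadjusted p 9 were higher (11.7%) and 0 lower, beside 4.75% and 2.13% of all genes. The median was between 0.16 and 0.24 when each array was left out in turn, 0.14 within slide 1, 0.36 within slide 2 and 0.18 without the 2 arrays with Nr1h3 against the label. The count of 9 was 24 without Wt TAC 1, the array with the lowest matrix level of its group, and 5 without Wt TAC 2 or without Wt TAC 4. With the mean of the atrial markers as a covariate the median was 0.10 and the count 4. The mean of these 77 genes, each centred on its mean over the 7 arrays, was -0.15, 0.22, 0.01 and 0.28 on Wt TAC 1 to 4, against -0.19, -0.03 and -0.15 on Wt sham 1 to 3. Wt TAC 2 and 4 were high and Wt TAC 1 lay within the Wt sham range.

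Among the 11 elastic fibre genes, 7 had a change above 0 and 4 below 0. All Wt TAC arrays lay above Wt sham for 2 of them, where 4.41% of all genes did so. Fbln2, which encodes the basement membrane and elastic fibre protein fibulin-2, had 9.79, 10.53, 9.75 and 9.98 on the Wt TAC arrays, against 9.25, 9.35 and 9.28 on the Wt sham arrays. All Wt TAC arrays stood above the highest Wt sham array, by at least 0.41. The change was 0.72 ± 0.20, a 1.65-fold difference (adjusted p = 0.63 by limma), with 0.37 and 0.67 from its other probes. Emilin1, which encodes a microfibril glycoprotein, had 6.03, 6.13, 5.77 and 5.92 on Wt TAC, against 5.64, 5.38 and 5.14 on Wt sham, with no overlap and detection on 4 of 4 Wt TAC and 2 of 3 Wt sham arrays. Its change was 0.57 (adjusted p = 0.63). Mfap4, another microfibril protein, was higher by 0.86 (adjusted p = 0.72) with overlapping groups. Of 11 elastic fibre genes 3 were higher at unadjusted p and 0 lower, beside 4.75% and 2.13% of all genes. Their median was 0.35, and 0.08 with the mean of the atrial markers as a covariate.

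The collagens gave a median of 0.29, with 13 of 15 above 0 and 2 higher at unadjusted p (13.3%, beside 4.75% of all genes). Col1a1, the main fibrillar collagen of scar, had 7.69, 8.44, 8.39 and 8.78 on Wt TAC, against 7.61, 8.02 and 7.60 on Wt sham. Wt TAC 1 fell within the Wt sham range and the other Wt TAC arrays lay above it. The change was 0.58 ± 0.30 (adjusted p = 0.75). Col3a1, the second fibrillar collagen, was detected on 3 of 4 Wt TAC and 2 of 3 Wt sham arrays and differed by -0.01 with its brighter probe and 0.52 with its other probe. The smaller collagens Col16a1 (0.56, adjusted p = 0.64) and Col4a4, a basement membrane chain, made the count. Col4a4 was not well above background on any Wt sham array, and the Wt TAC mean was at least 1.16-fold above the detection limit. Its detection on the Wt TAC arrays alone sufficed to admit it to the test. Of 19 collagen processing enzymes, 9 had a change above 0 and 0 an unadjusted p under 0.05.

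Small leucine-rich proteoglycans, which coat collagen fibrils, had 7 of 7 changes above 0 and a median of 0.31. Bgn, the gene of biglycan, had 11.76, 12.68, 12.29 and 12.64 on Wt TAC, against 11.64, 11.60 and 11.95 on Wt sham. Wt TAC 1 lay within the Wt sham range and the other Wt TAC arrays above it, for a change of 0.62 ± 0.23 (adjusted p = 0.64). Dcn, the gene of decorin, did not overlap but differed by only 0.25 (adjusted p = 0.75), and Prelp differed by 0.53 (adjusted p = 0.72).

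Among matricellular proteins, which signal to cells rather than bear load, Sparc was higher by 0.55 ± 0.19 (adjusted p = 0.63) and 0.44 by its other probe. Its values were 11.04, 11.86, 11.76 and 11.86 on Wt TAC, against 11.16, 11.12 and 10.97 on Wt sham, so that Wt TAC 1 alone fell within the Wt sham range. Comp, which encodes a matrix protein that assembles collagen fibrils, had 5.88, 6.34, 6.15 and 6.72 on Wt TAC, against 4.94, 5.45 and 5.85 on Wt sham. The groups did not overlap, by a gap of 0.03, and the probe was detected on 2 of 3 Wt sham arrays. The change was 0.86 ± 0.31 (adjusted p = 0.64). Ccn2, the connective tissue growth factor gene, had 11.28, 12.38, 11.22 and 12.84 on Wt TAC, against 10.97, 11.44 and 11.67 on Wt sham, a change of 0.57 (adjusted p = 0.79) carried by Wt TAC 2 and 4.

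Timp1, which inhibits matrix metalloproteinases and is a common marker of cardiac fibrosis, split the Wt TAC group in the same way. It had 6.29, 7.77, 6.49 and 7.50 on Wt TAC, against 6.20, 6.24 and 6.10 on Wt sham. Wt TAC 2 and 4 stood far above Wt sham, and Wt TAC 1 and 3 just above it. The change was 0.83 ± 0.39 (adjusted p = 0.72). Timp3, a matrix-bound inhibitor, was higher by 0.47 (adjusted p = 0.72), 0.62 within slide 1 and 0.12 within slide 2. Over 14 metalloproteinases and inhibitors the median was 0.24, with 1 higher at unadjusted p and 0 lower, beside 4.75% and 2.13% of all genes.

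**Figure D2:**
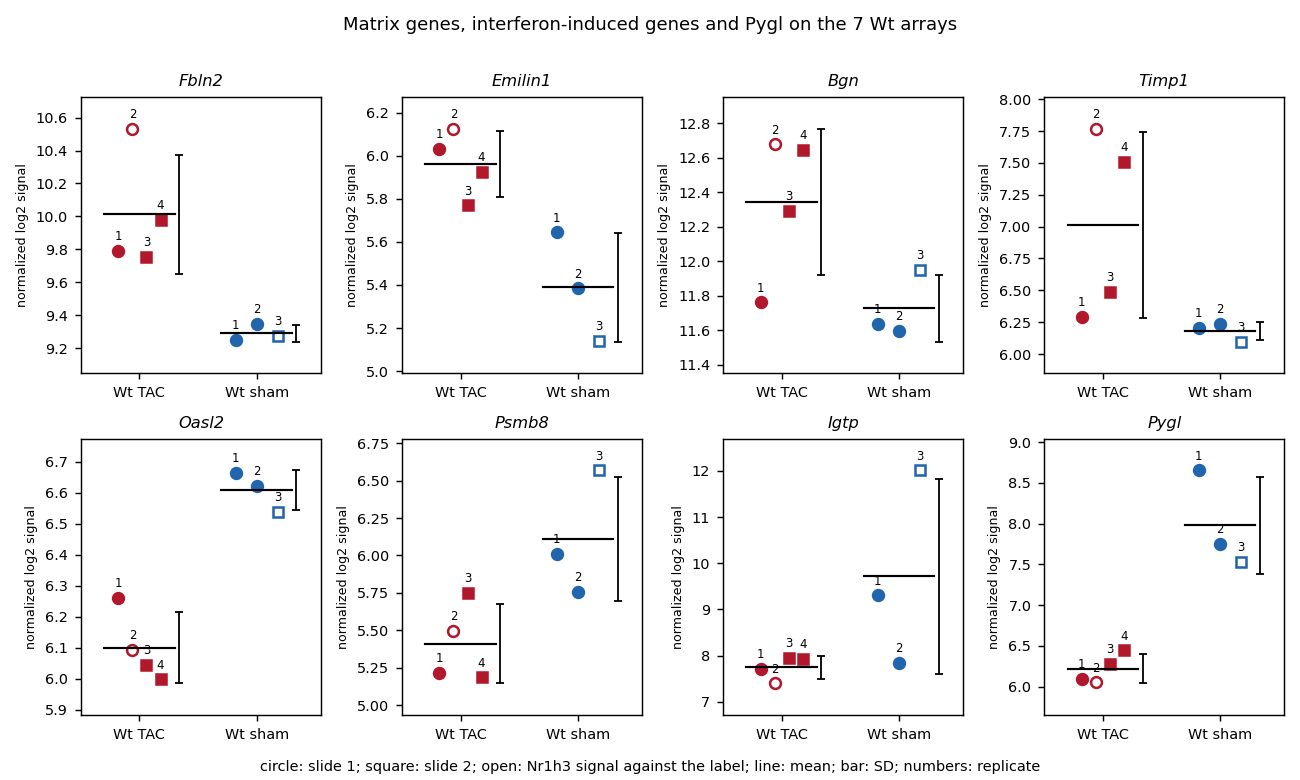
Normalized log2 signal of the matrix genes Fbln2, Emilin1, Bgn and Timp1, the interferon-induced genes Oasl2, Psmb8 and Igtp, and Pygl on each of the 4 Wt TAC (left, red) and 3 Wt sham (right, blue) arrays, with mean (line), SD (bar) and symbols for slide 1 (circle), slide 2 (square) and Nr1h3 against the label (open). Wt TAC lies above Wt sham for Fbln2, Emilin1 and Timp1 and below it for Oasl2, Psmb8 and Pygl, and Igtp is highest on Wt sham 3.

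Ligands and targets of the TGFβ family, the main growth factors of fibroblast activation, had a median of 0.13. At unadjusted p 3 of 17 were higher and 0 lower, beside 4.75% and 2.13% of all genes. Meox1, a homeobox factor switched on in activated cardiac fibroblasts, had 7.68, 8.36, 8.34 and 9.52 on Wt TAC, against 7.23, 7.73 and 7.78 on Wt sham. Wt TAC 4 stood highest, Wt TAC 1 fell within the Wt sham range, and the change was 0.90 ± 0.37 (adjusted p = 0.67). Bmp4 was higher by 0.53 (adjusted p = 0.64). Inhba, which encodes the activin A subunit, was detected on 3 of 4 Wt TAC and 0 of 3 Wt sham arrays, and its Wt TAC mean was at least 1.25-fold above the detection limit. Those Wt TAC arrays alone sufficed to admit Inhba to the test. Tgfb2 differed by 0.32 (adjusted p = 0.78) with no overlap. Fibroblast markers, the other readout of this compartment, had 12 of 15 changes above 0, a median of 0.25, and 0 at unadjusted p under 0.05 in either direction.

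**Figure D3:**
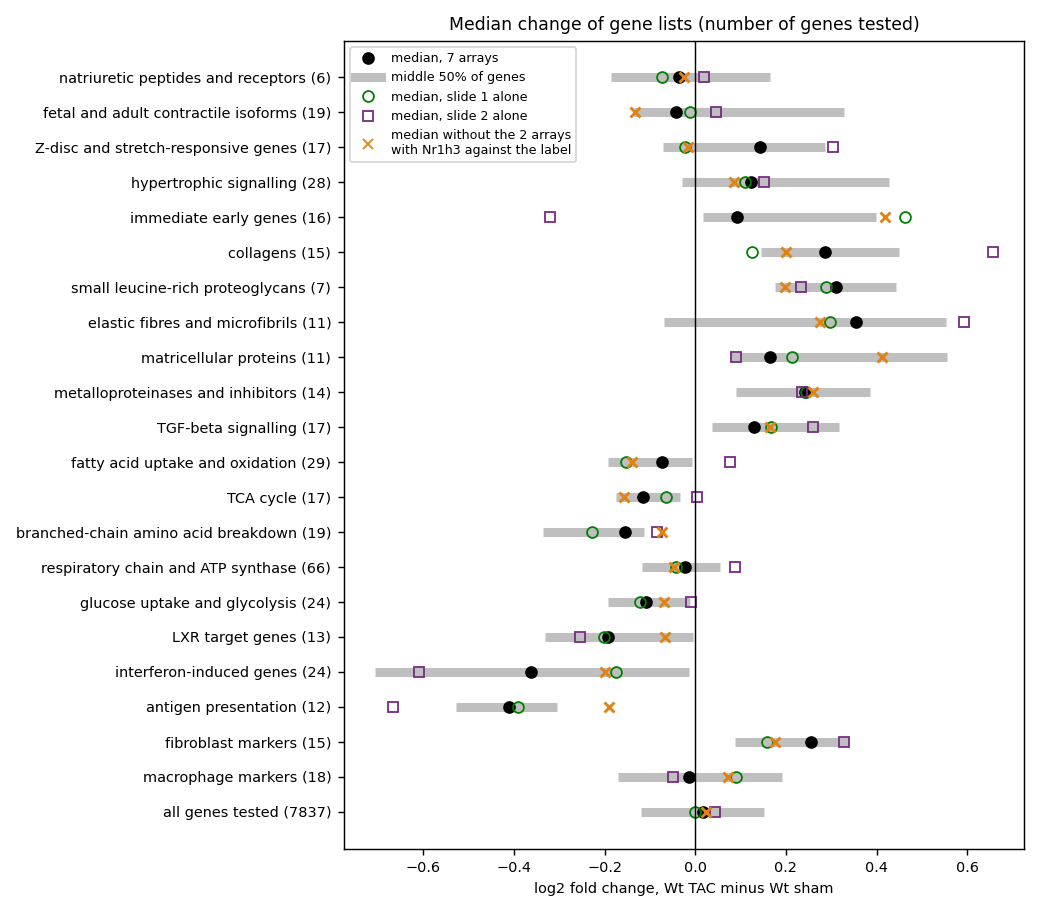
Median log2 change (Wt TAC minus Wt sham) of 21 gene lists and of all genes tested, with the number of genes in brackets. Black points are the medians over the 7 arrays and grey bars the middle 50% of genes. Open circles and squares are slides 1 and 2 alone, and crosses leave out the 2 arrays with Nr1h3 against the label. The matrix lists shown lie to the right of all genes (0.02), with collagens at 0.29 and elastic fibres at 0.35. The remaining matrix list, collagen processing enzymes (19 genes, median -0.003), is not shown. Interferon-induced genes (-0.36) and antigen presentation (-0.41) lie to the left.

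Lists of energy metabolism had medians a little below 0. Fatty acid uptake and oxidation had a median of -0.07, with 22 of 29 changes below 0, none of them at unadjusted p under 0.05, and the median was -0.15 within slide 1 and 0.08 within slide 2. The gene with the smallest p was Crat, carnitine acetyltransferase, which exports acetyl units from mitochondria. It had 10.47, 10.48, 10.78 and 10.69 on Wt TAC, against 10.97, 10.86 and 11.02 on Wt sham. Wt TAC lay below Wt sham by a gap of 0.09, with a change of -0.35 (adjusted p = 0.73), and -0.18 and -0.33 by its other probes. The TCA cycle had a median of -0.12, with 14 of 17 below 0 and 0 at unadjusted p.

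Breakdown of branched-chain amino acids had 18 of 19 changes below 0 and a median of -0.16, which was -0.23 within slide 1, -0.08 within slide 2 and -0.07 without the 2 arrays with Nr1h3 against the label. Pccb, a subunit of propionyl-CoA carboxylase at the end of valine and isoleucine catabolism, was the member at unadjusted p, with 9.52, 9.04, 9.26 and 8.97 on Wt TAC, against 9.73, 9.45 and 9.49 on Wt sham (change -0.36, adjusted p = 0.70). Wt TAC 1 stood within the Wt sham range and the other 3 below it. Among 66 respiratory chain and ATP synthase genes the median was -0.02, with Uqcrc1, a core subunit of complex III, lower by 0.26 on the log2 scale (change -0.26, adjusted p = 0.67).

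Glucose handling had a median of -0.11 and 19 of 24 below 0, with 1 gene higher and 2 lower at unadjusted p (4.75% and 2.13% of all genes). The median was -0.12 within slide 1 and -0.01 within slide 2. The glucose transporters Slc2a1 and Slc2a4 differed by -0.02 (interval -0.53 to 0.49) and -0.19 (interval -0.52 to 0.14), while the intracellular transporter Slc2a8 had a change of -0.31 (adjusted p = 0.64). Pygm, the muscle glycogen phosphorylase, had 9.79, 9.85, 9.84 and 9.60 on Wt TAC, against 10.42, 10.19 and 9.96 on Wt sham, with no overlap and a change of -0.42 (adjusted p = 0.72). Ugp2, which makes the UDP-glucose used for glycogen synthesis, was higher by 0.44 (adjusted p = 0.72). Pdk4, the kinase that shuts pyruvate dehydrogenase during fasting, differed by -0.29 (adjusted p = 0.94), from 0.26 within slide 1 to -1.06 within slide 2. The 5 hexosamine pathway genes had a median of -0.02.

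Pygl, the liver isoform of glycogen phosphorylase, had the widest gap between the groups of all 7837 genes. It had 6.10, 6.05, 6.28 and 6.44 on Wt TAC, against 8.65, 7.75 and 7.53 on Wt sham. Every Wt sham array stood at least 1.09 above every Wt TAC array. The change was -1.76 ± 0.35 (interval -2.51 to -1.01, adjusted p = 0.39 by limma), which is 3.39 times as much signal in Wt sham. Its other probe gave -1.05, slide 1 gave -2.13 and slide 2 gave -1.17. The centred mean of the liver markers was -1.55, -0.69, -1.45 and 1.05 on Wt TAC 1 to 4, against -0.13, 0.34 and 2.43 on Wt sham 1 to 3. Within Wt TAC, Pygl and the liver markers were both highest on Wt TAC 4. Within Wt sham, Pygl was highest on Wt sham 1, where the liver markers were lowest. The part of liver transcripts in the Pygl values was not tested.

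Regulators of oxidative metabolism were mixed. Rxrg, a retinoid X receptor that pairs with PPAR and LXR, had 8.70, 8.43, 8.55 and 8.38 on Wt TAC, against 8.99, 8.76 and 8.84 on Wt sham, a change of -0.35 (adjusted p = 0.64) with no overlap. Rxrb, a second receptor of the family, had a change of -0.37 (adjusted p = 0.67), also with no overlap, although its other probe gave -0.08. Ppara and Ppargc1a, which encode the fatty acid-sensing receptor and its coactivator PGC-1α, differed by 0.31 (adjusted p = 0.75) and 0.11 (adjusted p = 0.97), and both had the opposite sign within slide 2 (-0.03 and -0.54).

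LXR target genes were set against the 2 arrays with high Nr1h3. Scd1, a stearoyl-CoA desaturase and LXR target, had 7.37, 9.01, 7.09 and 8.38 on Wt TAC, against 9.45, 8.11 and 9.38 on Wt sham, and a change of -1.01 (adjusted p = 0.72). Wt TAC 2 and Wt sham 3, the arrays with high Nr1h3, were the highest of Wt TAC and the second highest of Wt sham. Without them the change was -1.16. Over 13 LXR targets the median was -0.19 with 1 lower at unadjusted p (Scd2, change -0.41, adjusted p = 0.72), and -0.07 without those arrays. The centred mean of the list was -0.27, 0.38, -0.31 and -0.20 on Wt TAC 1 to 4, against 0.13, -0.14 and 0.41 on Wt sham 1 to 3. It was highest on the arrays with high Nr1h3, and the part of Nr1h3 in these values was not tested. Cholesterol synthesis and uptake had 13 of 14 changes below 0 and 0 at unadjusted p.

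The main calcium handling genes of the heart had close means. Atp2a2, the sarcoplasmic reticulum calcium pump, averaged 14.49 ± 0.19 in Wt TAC (SD, n = 4) and 14.53 ± 0.23 in Wt sham (SD, n = 3), with an interval of -0.36 to 0.28 for the difference, and its other probe gave -0.18. With the brighter probe, signals of Atp2a2 were 21241.3 to 28359.0, also near the top of the arrays, and compression of a change there was not tested. Pln, its inhibitor phospholamban, differed by 0.09 with an interval of -0.71 to 0.89. Sln, the atrial pump inhibitor sarcolipin, had 9.35, 7.46, 8.80 and 9.47 on Wt TAC, against 4.30, 9.34 and 5.71 on Wt sham. Wt sham 2 stood with Wt TAC and the other Wt sham arrays far below, for a change of 2.32 ± 1.01 (adjusted p = 0.71). Cacna2d1, an auxiliary subunit of the L-type calcium channel, was higher by 0.57 (adjusted p = 0.67). Kcnip2, whose product carries the transient outward potassium current with Kv4 channels, had a change of -0.29 (adjusted p = 0.72), and -0.05 and -0.32 by its other probes.

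Of 11 atrial markers, Sln among them, 4 were higher and 1 lower at unadjusted p (4.75% and 2.13% of all genes), and the median was 0.62. The centred mean of the list was 0.56, 0.01, 0.16 and 0.62 on Wt TAC 1 to 4, against -1.26, 0.44 and -0.53 on Wt sham 1 to 3, so that Wt sham 1 held the least and Wt sham 2 as much as Wt TAC. Myl7 and Myl4, the atrial light chains, differed by 1.79 (adjusted p = 0.72) and 1.78 (adjusted p = 0.72). With the mean of these markers as a covariate, the changes of 3 genes outside the list were 0.80 for Acta1, 0.67 for Mef2c and 0.70 for Fbln2. The median of the elastic fibre genes was 0.08 with it and 0.35 without, and that of the collagens 0.27 and 0.29. The covariate says nothing about members of the list, which make it up. Dkk3, a secreted Wnt modulator listed as atrial, had 7.79, 7.92, 7.43 and 8.52 on Wt TAC, against 6.01, 7.28 and 7.17 on Wt sham, with no overlap and a change of 1.10 (adjusted p = 0.63). Nr2f2, an atrial identity factor, was detected on 3 of 4 Wt TAC and 0 of 3 Wt sham arrays, at least 1.03-fold above the detection limit. Those Wt TAC arrays alone sufficed to admit Nr2f2 to the test. The member on the other side was Stard10, a lipid transfer protein, with a change of -0.52 (adjusted p = 0.68) and -0.02 by its other probe. Ventricular markers had a median of -0.09. The part of atrial tissue in these values was not tested.

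Interferon-induced genes leaned lower in Wt TAC. Of 24 tested, 9 were lower at unadjusted p and 0 higher, where 2.13% and 4.75% of all genes were, and the median was -0.36. Oasl2, an antiviral oligoadenylate synthetase homologue, had 6.26, 6.09, 6.05 and 6.00 on Wt TAC, against 6.66, 6.62 and 6.54 on Wt sham. The Wt sham arrays were close together and lay at least 0.28 above every Wt TAC array. The change was -0.51 ± 0.13 (adjusted p = 0.63 by limma), -0.47 within slide 1 and -0.52 within slide 2, and -0.26 by its other probe. Psmb8, an immunoproteasome subunit, had 5.21, 5.50, 5.75 and 5.18 on Wt TAC, against 6.01, 5.76 and 6.57 on Wt sham, with a gap of 0.01 and a change of -0.70 (adjusted p = 0.63). Psmb9, a second such subunit, had 7.28, 7.09, 7.44 and 7.16 on Wt TAC, against 8.15, 7.39 and 8.36 on Wt sham, a change of -0.72 (adjusted p = 0.63).

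Other members of the list were high mainly on Wt sham 3. Igtp, an interferon-γ-induced GTPase, had 7.71, 7.40, 7.95 and 7.92 on Wt TAC, against 9.31, 7.84 and 12.01 on Wt sham. Wt sham 2 lay within the Wt TAC range and Wt sham 3 far above all others. Its change of -1.97 ± 0.69 (adjusted p = 0.63) was -1.02 within slide 1 and -4.07 within slide 2. The adjusted p within slide 2 was 0.0275 by limma, but there Wt sham is Wt sham 3 alone, which was taken to vary like the other groups. The guanylate-binding proteins Gbp3 (-0.88, adjusted p = 0.63) and Gbp2 (-0.75, adjusted p = 0.64), which attack vacuolar pathogens, had the same order, with 8.78 and 10.06 on Wt sham 3. The centred mean of the list was -0.22, -0.20, -0.13 and -0.11 on Wt TAC 1 to 4, against 0.11, -0.11 and 0.65 on Wt sham 1 to 3. Without Wt sham 3 the median was -0.16, with 2 members lower and 2 higher at unadjusted p, and with the atrial covariate 3 were lower. That array is also the one with kidney and liver transcripts and high Nr1h3, and their part in these values was not tested.

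Promoters of 3 interferon-induced genes show the letters of the interferon-stimulated response element (ISRE, searched as GAAANNGAAA) and of the gamma-activated site (GAS, searched as TTCNNNGAA), in capitals, on both strands. These motifs were chosen after the values were seen.
Igtp, 80 bases before the start, chr11:58199476-58199555, plus strand: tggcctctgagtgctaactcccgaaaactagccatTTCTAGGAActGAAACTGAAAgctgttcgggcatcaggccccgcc
Gbp2, 90 bases before the start, chr3:142620573-142620662, plus strand: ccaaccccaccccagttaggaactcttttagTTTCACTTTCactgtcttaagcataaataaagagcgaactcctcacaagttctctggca
Gbp3, 90 bases before the start, chr3:142559954-142560043, plus strand: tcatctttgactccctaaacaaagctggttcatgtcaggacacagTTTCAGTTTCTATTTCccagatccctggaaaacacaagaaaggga
Igtp had a GAS at -45 and an ISRE at -34. Gbp2 had an ISRE on the reverse strand at -59, and Gbp3 had a pair of overlapping ones at -45 and -39. The promoter of Psmb9, not shown, had neither motif in the 120 bases before the start. An ISRE was in 9 of 21 promoters of the list and in 3.04% of all promoters, and a GAS in 6 of 21 and in 7.18%.

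Antigen presentation genes followed, with 12 of 12 changes below 0, a median of -0.41 and 2 lower at unadjusted p (2.13% of all genes). H2-Ab1, a class II histocompatibility chain, had 8.88, 9.39, 9.72 and 9.60 on Wt TAC, against 10.55, 9.45 and 10.55 on Wt sham. Wt sham 2 again lay within the Wt TAC range, and the change was -0.79 ± 0.31 (adjusted p = 0.64), and -0.49 to -0.62 by its other probes. H2-DMb1, which loads peptides on class II molecules, had a change of -0.65 (adjusted p = 0.72). Without the 2 arrays with Nr1h3 against the label the median of the list was -0.19, and with the atrial covariate it was -0.07. The 2 calls were 5 without Wt sham 2 and 0 without Wt TAC 1, Wt sham 1 or Wt sham 3. Cd274, the gene of the immune checkpoint ligand PD-L1, had 7.41, 7.02, 7.34 and 7.05 on Wt TAC, against 8.02, 7.53 and 9.01 on Wt sham, with a gap of 0.13 and a change of -0.98 ± 0.26 (adjusted p = 0.63).

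Macrophage markers as a list leaned neither way, with a median of -0.01 and 1 of 18 higher at unadjusted p (5.56%, beside 4.75% of all genes). That member was Cd163, the haemoglobin scavenger receptor of resident macrophages, at 6.02, 6.14, 6.19 and 5.77 on Wt TAC, against 5.54, 5.59 and 4.88 on Wt sham (change 0.70, adjusted p = 0.64, no overlap, detected on 2 of 3 Wt sham arrays). Of 22 chemokines and interleukins 1 was higher at unadjusted p (4.55%), near the 4.75% of all genes. It was Ccl21a, a lymphatic chemokine with near-identical gene copies that its probe may also read (0.64, adjusted p = 0.64).

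Vascular cell markers gave single genes rather than a shift. Rgs5, the pericyte regulator of G-protein signalling, had 10.32, 10.45, 10.45 and 9.83 on Wt TAC, against 9.71, 9.57 and 9.62 on Wt sham, a change of 0.63 ± 0.22 (adjusted p = 0.63) with no overlap. Among 17 endothelial markers Pecam1, the platelet-endothelial adhesion molecule, was higher by 0.36 (adjusted p = 0.72), but by 0.12 with its other probe, and Eng, the TGFβ co-receptor endoglin, had a change of -0.42 (adjusted p = 0.64), with a list median of 0.03. Of 6 adipocyte markers tested, 5 had a change below 0, and the median was -0.33. The lipid droplet gene Plin4 had a change of -0.35 (adjusted p = 0.64). Cidea, another droplet protein and the only member above 0, had a change of 0.38 (adjusted p = 0.67). Adipocyte defining markers Lep, Retn, Plin1 and Cidec were detected on none of the 7 arrays.

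Liver markers had 20 of 20 changes below 0 and a median of -1.81, from -1.50 within slide 1 to -2.90 within slide 2. Mup2, a major urinary protein whose probe may read other members of its family, had 6.91, 9.14, 6.66 and 10.47 on Wt TAC, against 9.85, 10.23 and 11.43 on Wt sham, and Apoa1, the apolipoprotein of HDL, had 6.21, 7.13, 6.24 and 9.23, against 8.18, 8.64 and 11.20. Wt TAC 4 stood with Wt sham in both. Without Wt sham 3 the median of the list was -0.94 and 0 members had an unadjusted p under 0.05, against 5 with it, while 17 did without Wt TAC 4 and 15 without Wt sham 1. Kidney markers had a median of -0.73 and of 0.31 without Wt sham 3. Cyp4b1 of that list had 6.99, 6.93, 6.93 and 6.96 on Wt TAC, against 7.08, 7.37 and 8.51 on Wt sham.

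Of 16 cell cycle genes, 4 were higher at unadjusted p with 0 lower, beside 4.75% and 2.13% of all genes. Ccnd2, the gene of cyclin D2, was bright, with signals of 789.3 to 1251.8 on Wt TAC, against 408.0 to 638.9 on Wt sham. It was detected on 4 of 4 Wt TAC and 3 of 3 Wt sham arrays, with a change of 0.53. Mcm6, Cdc20 and Birc5 were dim. Probes entered by detection on at least 3 arrays of any group, so the Wt TAC arrays alone sufficed to admit Cdc20 and Birc5 to the count. Mcm6, a helicase subunit of DNA replication, had 5.92, 6.36, 6.28 and 6.39 on Wt TAC, against 5.41, 6.00 and 5.81 on Wt sham, a change of 0.50 (adjusted p = 0.64), but 0.06 and 0.21 by its other probes. Cdc20, a mitotic activator, was detected on 4 of 4 Wt TAC and 1 of 3 Wt sham arrays (0.53, adjusted p = 0.64), and its other probe gave 0.25 with detection on 2 of 4 and 1 of 3. Birc5, which encodes survivin, was detected on 4 of 4 and 0 of 3, at least 1.13-fold above the detection limit, and its other probe gave 0.03. With median scaling the list had 0 members at unadjusted p, and 1 without Wt TAC 2 or without Wt TAC 4.

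Lists of protein turnover and translation had medians close to 0. The median was -0.03 for 30 proteasome and atrophy ligase genes, 0.05 for 49 cytosolic ribosomal proteins (-0.01 with median scaling) and -0.03 for 69 mitochondrial ribosomal proteins. Psmd8, a subunit of the proteasome lid, stood apart from its complex, with 8.89, 10.05, 9.98 and 10.03 on Wt TAC, against 8.72, 9.07 and 8.83 on Wt sham. Wt TAC 1 lay within the Wt sham range and the other 3 arrays well above it. The change was 0.87 ± 0.27 (adjusted p = 0.63). Mrpl4 and Mrps6, subunits of the mitochondrial ribosome, had changes of -0.35 (adjusted p = 0.63) and -0.44 (adjusted p = 0.65), with no overlap. Of the 69 genes, 3 lay wholly below Wt sham (Mrpl4, Mrps6 and Mrps22) and 2 wholly above it (Mrpl33 and Mrps26). Over all genes, 2.87% lay wholly below and 4.41% wholly above, so these counts are near the general share. Heat shock proteins and endoplasmic reticulum stress genes had medians of -0.14 and -0.10 and 0 members at unadjusted p.

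Of 16 genes of the ATF4 stress response, 2 were higher and 1 lower at unadjusted p (4.75% and 2.13% of all genes). Shmt2, the mitochondrial serine hydroxymethyltransferase, had 6.53, 6.21, 6.45 and 6.47 on Wt TAC, against 7.01, 7.09 and 6.68 on Wt sham, a change of -0.51 (adjusted p = 0.63) with no overlap. Nupr1, a stress-induced chromatin protein, was higher by 0.57 (adjusted p = 0.70) and Aldh18a1, the first enzyme of proline synthesis, by 0.41 (adjusted p = 0.71). Gpx7, an oxidase of the secretory pathway, was the 1 of 35 glutathione and antioxidant genes higher at unadjusted p (0.33, adjusted p = 0.72). That is 2.86% of the list, below the 4.75% of all genes. Rora, an orphan receptor that drives the clock gene Bmal1, was the 1 of 13 clock genes higher at unadjusted p (0.39, adjusted p = 0.64), 7.69% beside 4.75%. The median of the clock list was 0.60 within slide 1 and -0.43 within slide 2.

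The genes with the smallest p came mostly from outside these lists. Gask1b, which encodes a Golgi-associated protein related to secreted kinases, had 9.11, 9.34, 8.99 and 9.05 on Wt TAC, against 8.21, 8.40 and 8.46 on Wt sham. The Wt TAC arrays were close together and at least 0.54 above Wt sham. The change was 0.77 ± 0.14 (interval 0.46 to 1.08), a 1.7-fold difference (adjusted p = 0.39 by limma), between 0.69 and 0.82 with each Wt array left out in turn. Zbtb38, a zinc finger protein that binds methylated DNA, had 5.81, 6.03, 6.37 and 6.09 on Wt TAC, against 5.01, 5.01 and 5.35 on Wt sham, with a gap of 0.46, a change of 0.95 ± 0.18 (adjusted p = 0.39) and detection on 1 of 3 Wt sham arrays.

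Muscle and vascular genes were among them. Synm, which encodes synemin, an intermediate filament protein that ties desmin to the Z-disc and costamere, had 8.03, 7.32, 7.75 and 6.76 on Wt TAC, against 6.11, 6.46 and 6.43 on Wt sham. Wt TAC 4 was the lowest of its group but still above Wt sham, for a change of 1.13 ± 0.26 (adjusted p = 0.52), and 0.40 by its other probe. Tcf4, a basic helix-loop-helix factor, differed by 0.49 (adjusted p = 0.54) and Scin, the actin-severing protein adseverin, by 0.90 (adjusted p = 0.62). Dct, a melanocyte enzyme also found in some heart cells, had 6.13, 6.60, 6.61 and 7.16 on Wt TAC, against 4.45, 5.74 and 5.81 on Wt sham, a change of 1.29 ± 0.31 (adjusted p = 0.55), and 0.85 without Wt sham 1. Pdpn, the lymphatic and mesothelial glycoprotein podoplanin, named after its values were seen, differed by 0.76 (adjusted p = 0.63) with a gap of 0.36.

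Genes of RNA handling completed the upper end. Ddx6, an RNA helicase of processing bodies, had 9.08, 9.13, 8.98 and 8.23 on Wt TAC, against 7.97, 7.88 and 7.92 on Wt sham. Wt TAC 4 lay nearer to Wt sham than to its own group. The change was 0.93 ± 0.21 (adjusted p = 0.52), but 0.38 and 0.23 by its other probes, and 1.14 without Wt TAC 4, where the adjusted p was 0.036 by limma. Ttc14 and Uri1 differed by 0.79 (adjusted p = 0.52) and 0.58 (adjusted p = 0.52), both without overlap.

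At the lower end, beside Pygl and Oasl2, stood genes with narrow groups. Samhd1, a dNTP hydrolase that restricts viruses and is itself interferon-induced, had 6.48, 6.39, 6.28 and 6.48 on Wt TAC, against 6.95 to 7.03 on Wt sham. The groups were separated by a gap of 0.47, wider than the range of either, and the change of -0.59 ± 0.13 (adjusted p = 0.52) was -0.58 within slide 1 and -0.57 within slide 2. Pex26, a peroxisome assembly factor, had 5.35, 5.26, 5.36 and 5.36 on Wt TAC, against 6.08, 5.92 and 5.84 on Wt sham (change -0.61, adjusted p = 0.52). Suox, sulfite oxidase of the mitochondrial intermembrane space, differed by -0.62 ± 0.12 (adjusted p = 0.39 by limma).

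Txndc11, a thioredoxin-domain protein, was detected on 0 of 4 Wt TAC and 3 of 3 Wt sham arrays, and the Wt sham mean was at least 1.29-fold above the detection limit (adjusted p = 0.39). Anks1, an ankyrin and sterile α motif adaptor, had 7.38, 7.36, 7.29 and 7.61 on Wt TAC, against 8.23, 8.34 and 7.76 on Wt sham (change -0.70, adjusted p = 0.52). Ybx2, a cold-shock RNA-binding protein, differed by -0.67 (adjusted p = 0.63) with a gap of 0.33.

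**Figure D4:**
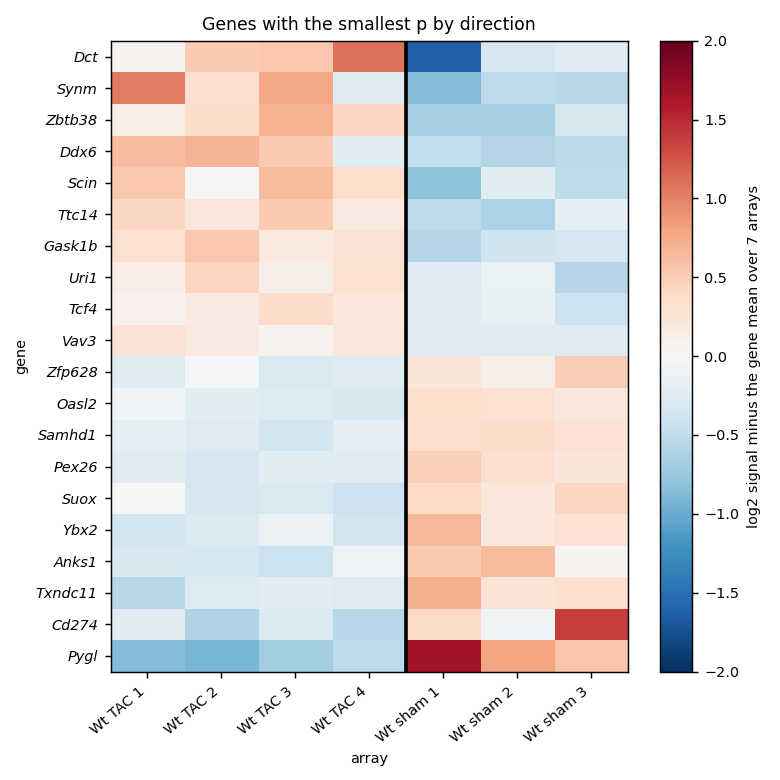
Normalized log2 signal minus the mean over the 7 arrays, for the 10 genes per direction with the smallest p, in the 4 Wt TAC arrays (left of the line) and the 3 Wt sham arrays (right). These genes were ranked on the values shown. Wt TAC 4 is the lowest of its group for Synm (6.76) and Ddx6 (8.23), and Wt sham 3 is the highest for Cd274 (9.01).

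The response was compared with that of LXRα-Tg hearts through the difference of the TAC effects, LXRα-Tg minus Wt, in which no array is shared. Of 7837 genes 0 had an adjusted p under 0.05 by limma (percent called 0.0, lowest adjusted p 0.185), and 803 (10.2%) passed at unadjusted p, 329 of them higher (4.2%) and 474 lower (6.05%). Timp1 had a change of -1.78 in LXRα-Tg and 0.83 in Wt, a difference of -2.61 (adjusted p = 0.185), and Gask1b -0.54 and 0.77, a difference of -1.30 (adjusted p = 0.185). For Myh7 the changes were -2.75 in LXRα-Tg and 0.54 in Wt (difference -3.29, adjusted p = 0.21), for Comp -1.24 and 0.86 (difference -2.10, adjusted p = 0.185), and for Acta1 -1.16 and 1.19 (difference -2.34, adjusted p = 0.456). These 5 genes stood on opposite sides of 0 in the 2 genotypes as labelled, and none passed the adjusted threshold. Genes compared here were named as pressure-overload genes or for their values in Wt. The difference subtracts the Wt change, so its negative sign in genes named as higher in Wt TAC was partly selected. Further genes of the same sign were Meox1 (difference -2.08, adjusted p = 0.229), Ccn2 (-1.55, adjusted p = 0.334), Rcan1 (-1.61, adjusted p = 0.334), Fbln2 (-1.24, adjusted p = 0.185) and Mef2c (-0.75, adjusted p = 0.364), and Ppp3ca differed by -0.48 (adjusted p = 0.507).

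The 77 matrix genes had a median change of -0.27 in LXRα-Tg TAC against LXRα-Tg sham. Interferon-induced genes had a median of -0.44 there, on the same side of 0 as in Wt, and Oasl2 was at -0.89 in LXRα-Tg and -0.51 in Wt. Pygl was at 0.14 in LXRα-Tg and -1.76 in Wt (difference 1.90, adjusted p = 0.231). It had the widest gap in Wt of all genes, and the difference subtracts the Wt change, so this sign too was partly selected. Nr1h3 went against the label on 3 of the 6 LXRα-Tg arrays as well, so these differences rest on labels that the transgene does not bear out on 5 of 13 arrays.

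**Figure D5:**
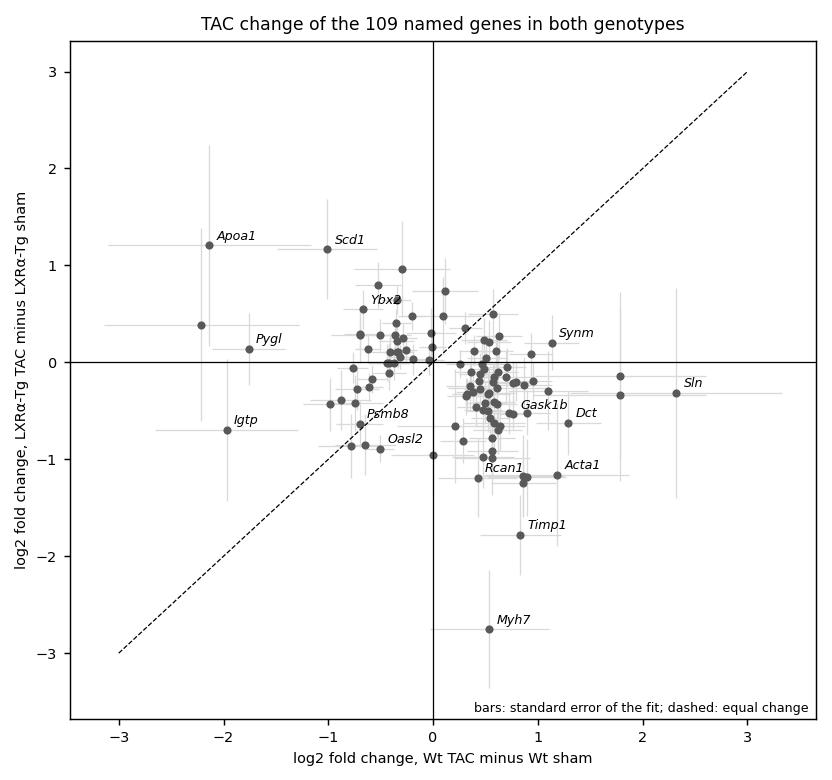
Log2 change with TAC in Wt (horizontal axis) and in LXRα-Tg (vertical axis) for 109 of the genes named in the text, with standard errors of the fit. The dashed line marks equal change. Many genes were named for their change in Wt, so their horizontal spread was selected. Timp1 (0.83 in Wt, -1.78 in LXRα-Tg) and Myh7 (0.54 and -2.75) lie far below the line, and Oasl2 and Psmb8 lie near it.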

How the data were processed

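Left ventricular RNA was hybridised to Illumina MouseRef-8 arrays. Per the submitters' processing notes, GenomeStudio 2011.1 was used, and the authors deposited for each array a background-subtracted signal intensity per probe and a detection p-value. Groups were taken from the sample labels. For this report the deposited intensities were corrected and quantile normalized with limma's neqc (limma 3.58.1, R 4.3.3, offset 16, with background moments estimated through the detection p-values) and expressed as log2. Probes with a detection p under 0.01 on at least 3 arrays were kept (11028 of 25697), and the brightest probe stood for each of 7837 genes. Of all probes, 23978 carried 1 gene symbol, 1719 carried none and 0 carried several.

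Group means were modelled by lmFit over all 13 arrays, which left 9 residual degrees of freedom, and tested by eBayes with Benjamini-Hochberg adjustment over all genes and a threshold of 0.05. The number of arrays limits the precision. A gene not above background on any array of a group was given as a bound, its mean in the brighter group against the lowest detected signal per array. The fit was checked on simulated data with known changes. Promoters were searched in RefSeq sequence (GRCm38.p6) with Python 3.11.15.

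Genes named are a fixed set of pressure-overload genes, the 10 per direction with the smallest p, up to 6 per pathway list and 3 per marker list with the smallest p, and the 5 per direction with the widest gap. Members and lists were chosen with earlier results of these data known. Alternatives covered background correction, scaling, dim-probe filters, probe choice, source of the values, slide, array weights, variance trend, the atrial marker mean, the arrays fitted, each Wt array left out, the methods' t-test and the methods' Bonferroni comparison.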

Additional observations from a re-analysis of the deposited data

Results flagged for a closer look

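In 13 of 163 groups of 4 Wt TAC values examined, 1 array stood apart from the other 3 by more than Dixon's critical value of 0.829, where chance gives about 1 in 20 groups. Wt TAC 4 stood low for Mef2c (8.61, the others 9.32 to 9.41), Ddx6 (8.23, the others 8.98 to 9.13) and Rora (7.26, the others 7.76 to 7.84), and high for Rcan1 (11.85, the others 10.11 to 10.37). Wt TAC 1 stood low for Sparc (11.04, the others 11.76 to 11.86), Psmd8 (8.89, the others 9.98 to 10.05) and Txndc11 (4.48, the others 4.76 to 4.80). Wt TAC 2 stood high for Dcn (13.35, the others 13.16 to 13.18) and low for Pex26 (5.26, the others 5.35 to 5.36).

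Among list means, each gene centred on its mean over the 7 arrays, Wt TAC 1 stood high for breakdown of branched-chain amino acids (0.16). Wt TAC 2, an array with high Nr1h3, stood high for LXR target genes (0.38) and for adipocyte markers (-0.03). Wt TAC 4 stood high for cholesterol synthesis and uptake (0.09).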

How the results depend on the processing

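Over 24 alternatives, 97 of 109 genes named kept their direction in every one and 12 did not. Of 1295 list medians under alternatives, 61 moved by more than the spread between arrays. The cause was not tested for any of the values below. By adjusted p, slide 2 alone called 1 gene higher (Sln) and 6 lower (Fxyd2, Guca2b, Igtp, Irgm2, Kap and Napsa), where the lone Wt sham array was taken to have the spread of the remaining groups. Leaving out each array called 0 to 3 higher, the 3 without Wt TAC 4 (Ddx6, Enpp4 and Kitl).

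At unadjusted p, the 372 higher and 167 lower genes became 234 and 310 with median scaling, so that the share of higher calls was 43.0% instead of 69.0%. No filter on dim probes gave 560 and 422, and the atrial covariate 193 and 105. The methods' Bonferroni comparison gave 96 and 51. Its p was corrected for several group comparisons and not moderated by eBayes, so these counts are not like the 372 and 167. The count of higher genes was 227 to 378 when each array was left out, lowest without Wt sham 1. The count of lower genes was 268 within slide 1, 307 within slide 2, 326 without the 5 arrays with Nr1h3 against the label and 251 with array weights. For the difference between genotypes, median scaling gave 602 higher and 299 lower, and no filter 584 and 714.

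Within slide 2 the sign turned for Nppb (-0.37), Myh6 (0.15), Ankrd1 (-0.16), Col3a1 (0.73), Ppara (-0.028) and Ppargc1a (-0.54), and within slide 1 for Rcan1 (-0.15), Slc2a1 (0.32), Pdk4 (0.26), Atp2a2 (0.066) and Pln (-0.063). The slide as a block turned Myh6 (0.018) and Col3a1 (0.10). The atrial covariate turned Myl4 (-0.11), itself a member of the atrial list, Col3a1 (0.27) and Atp2a2 (0.13), and array weights turned Slc2a1 (0.045), Atp2a2 (0.040) and Pln (-0.034). Without the 2 Wt arrays, or the 5 arrays, with Nr1h3 against the label, Slc2a1 was 0.0047 and Pln -0.32. Col3a1 was 0.52 among probes detected on all arrays of a group and 0.26 as the mean of its probes. Leaving out each array gave -0.11 to 0.56 for Nppb, -0.12 to 0.060 for Myh6, -0.35 to 0.18 for Col3a1, -0.12 to 0.10 for Slc2a1, -0.17 to 0.35 for Ppargc1a, -0.15 to 0.070 for Atp2a2 and -0.30 to 0.43 for Pln. No paired analysis was possible because the labels give no replicate numbers. Dim probes are limited by their signal over background.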
